A study of Arabidopsis thaliana with 28 samples.

Results

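Wild-type Arabidopsis thaliana seedlings raised in sucrose medium were compared with wild-type seedlings raised on soil. The comparison took 7 of the 28 RNA sequencing libraries of the series: Mock replicates 1 to 4, the controls in an experiment on trichostatin A (TSA), which inhibits deacetylases, and Columbia replicates 1 to 3, the wild type of an experiment on histone variant and deacetylase mutants. Both groups carry the genotype Columbia-0 (Col-0), were labelled as controls, were cold-treated as seed for 4 days at 4 °C, grew in long days at about 21 °C and were taken as whole seedlings 12 days after germination. The growth description assigns MS medium (a complete mineral medium) with 1% sucrose to the plants of the TSA experiment and a soil mixture to plants in general, and the medium of each group was read from that description. What the Mock seedlings received in place of TSA is not stated. Mock replicate 5 was left out by the rule that chose the libraries and appears below as an alternative.

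The groups differ in medium, in experiment and in the deposited table they come from, and these cannot be told apart. For that reason only large changes are described: a Benjamini-Hochberg adjusted p under 0.05 in edgeR's quasi-likelihood test over all 20115 genes tested (called the edgeR adjusted p below), a change of at least 4-fold, and every library of one group above every library of the other. Levels are in CPM, read counts relative to library size with scaling factors set jointly over the 7 libraries. Total gene counts were 30257874 to 33787915 in Mock and 32795474 to 39633678 in Columbia. Log-CPM values correlated at 0.968 to 0.986 within Mock and at 0.974 to 0.981 within Columbia, and at 0.846 to 0.895 between the groups. Nuclear ribosomal RNA genes took 0.433% to 1.32% of the counts in Mock and 0.152% to 0.189% in Columbia. The replicates are called independent biological replicates in the series text, without saying whether they were separate sowings.

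A seedling adjusts many transcripts to what its roots find. Low phosphate switches on transporters, phosphatases and enzymes that replace phospholipids; low copper switches on microRNAs that remove transcripts of copper proteins; nitrate raises cytokinin, which induces the type-A response regulators; sugar represses genes of carbon starvation. Endodermis and root hairs make transcripts that the shoot hardly makes. Their levels in a seedling sample depend on its share of root RNA and on how strongly root cells express these genes.

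Large changes were found in 1781 genes, 8.85% of those tested. Of these, 1132 were higher in Mock (5.63% of the genes tested) and 649 were lower in Mock (3.23%). The wider call at an edgeR adjusted p under 0.05 alone took in 58.0% of the genes tested, 29.8% higher and 28.2% lower, so that it separates few genes from the rest. The median log2 fold change over all genes tested was 0.03. In the gene lists described below the members were read against these shares, and only list members that passed the filter on low counts could be tested. A member near 0 in one group could pass that filter only through the group where it was higher. The shares and medians of lists with such members, as the root marker and seed maturation lists, therefore lean toward that group.

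**Figure D1:**
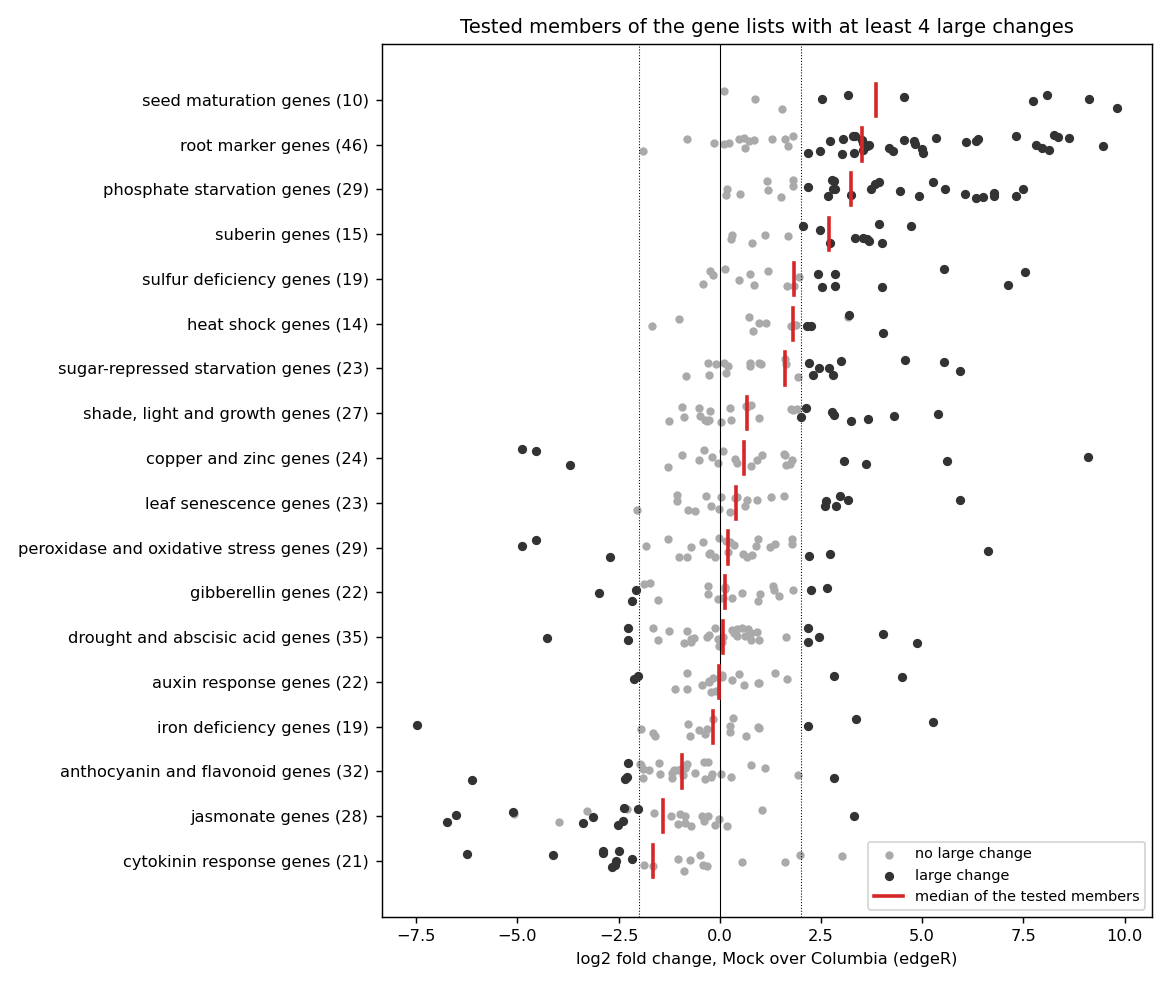
Log2 fold change, Mock over Columbia (horizontal axis), of each tested member of the 18 gene lists that held at least 4 large changes, with the number of tested members in brackets. Dark points are large changes, dotted lines mark 4-fold, and red bars are list medians, which run between -1.66 for cytokinin response genes and 3.87 for seed maturation genes.

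Genes that mark root tissues stood far higher in Mock. Of 62 root marker genes, 46 could be tested, and 32 of these were higher by the large-change rule and 0 lower, against 5.63% and 3.23% of all genes tested. Their median log2 fold change was 3.52, against 0.03 over all genes. Of the 62, 0 were without a count in all Mock libraries, against 17 without a count in all Columbia libraries. The summed level of the list was 1870 to 2950 CPM in Mock and 849 to 953 CPM in Columbia. The aquaporin gene PIP1C alone averaged 577 CPM in Mock and 636 CPM in Columbia.

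PYK10, a beta-glucosidase of root endoplasmic reticulum bodies, was at 1970, 1070, 1080 and 1310 CPM in Mock 1 to 4, against 58.4, 40.6 and 111 CPM in Columbia 1 to 3. CASP1, which organises the Casparian strip of the endodermis, was at 7.23, 5.26, 4.67 and 8.16 CPM in Mock and at 0.365, 0.287 and 0.143 CPM in Columbia. The groups did not overlap for either gene, and the log2 fold changes were 4.27 ± 0.41 (SE) for PYK10 (edgeR adjusted p = 4.33e-05) and 4.56 ± 0.36 for CASP1 (edgeR adjusted p = 1.93e-05). RHS19, a peroxidase gene of root hairs, was at 1.56 to 3.95 CPM in Mock and had no count in Columbia, at least 84.3-fold higher in Mock against a floor of 3 counts over the group. CYP708A2, which oxidises the root triterpene thalianol, averaged 7.88 CPM in Mock and 0.0878 CPM in Columbia. The defining genes of endodermis and root hairs were thus at or near 0 in the Columbia libraries, although their label is whole seedling. Some root patterning genes did not follow: SHR and SCR, which specify the endodermis and are also used in leaves, had log2 fold changes of 0.47 and 0.12 and made no large change, and CPC, a regulator of hair cell fate in root and shoot, had -1.89. In bulk RNA, fewer root cells, less RNA per root cell and lower expression of these genes within root cells cannot be told apart.

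Genes for suberin, the lipid polymer of endodermis and periderm walls, were higher in the same libraries. Of 17 such genes, 15 were tested, and 10 were higher and 0 lower, with a median log2 fold change of 2.71; FAR4, FAR5, GPAT5, GPAT7, CYP86A1 and CYP86B1 are also on the root list. CYP86A1, a fatty acid hydroxylase of suberin synthesis, was at 8.60, 13.8, 6.45 and 11.1 CPM in Mock, against 0.562, 1.15 and 0.631 CPM in Columbia. MYB92, a regulator of suberin genes, averaged 3.35 ± 0.71 CPM in Mock (SD, n = 4) and 0.221 ± 0.104 CPM in Columbia (SD, n = 3), 15.3-fold higher in Mock (edgeR adjusted p = 3.77e-05).

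Phosphate starvation genes were the mineral list with the most large changes. Of 30 members, 29 were tested, and 21 were higher in Mock and 0 lower, at a median log2 fold change of 3.25. Their summed level was 4670 to 5660 CPM in Mock and 606 to 657 CPM in Columbia. The 8 tested members without a large change had log2 fold changes of 0.16 to 1.82, among them PHR1, the regulator that activates the list, at 24.7 CPM in Mock and 22.2 CPM in Columbia.

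The largest fold changes of the list were those of transcripts that sequester miR399, the microRNA that in low phosphate removes the message of PHO2, an enzyme that limits phosphate transport. AT5G03545, annotated as induced by phosphate starvation (IPS2), was at 1910, 1070, 1920 and 1590 CPM in Mock, against 9.41, 10.2 and 7.29 CPM in Columbia (log2 fold change 7.50 ± 0.32, edgeR adjusted p = 2.06e-06). IPS1 was at 235, 95.9, 131 and 153 CPM in Mock, against 0.449, 1.87 and 0.631 CPM in Columbia, a 161-fold difference that came to 282-fold without Columbia replicate 2. Neither gene overlapped between the groups. PHO2 itself was at 136, 351, 317 and 237 CPM in Mock and at 97.4, 45.5 and 92.1 CPM in Columbia, 3.32-fold higher and so below the 4-fold limit. The lines below set mature miR399b (5' to 3', seed bases 2 to 8 in capitals) beside the stretch of each transcript that pairs with it best (bases that pair in capitals), to show the interrupted match that makes these transcripts decoys. RefSeq TAIR10.1 places miR399b at chr1:23345387-23345407 on the minus strand, the IPS1 stretch at chr3:3051224-3051247 and the AT5G03545 stretch at chr5:895149-895172, both on the plus strand.
miR399b: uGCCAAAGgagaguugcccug
IPS1: uuGGGCAACUucuaUCCUUUGGCA
AT5G03545: uuGGGCAACUucgaUCCUUUGGCA
In both, 18 of the 21 bases of miR399b pair once 3 bases opposite its middle are looped out. The levels of miR399 were not analysed here.

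Some enzymes that free or replace phosphate in lipids were among the higher genes; SQD1 and GDPD5, of the same kind, made no large change, at log2 fold changes of 1.82 and 1.2. SRG3, a glycerophosphodiester phosphodiesterase, was at 463, 522, 646 and 604 CPM in Mock and at 39.8, 40.1 and 38.5 CPM in Columbia (log2 fold change 3.82 ± 0.19, edgeR adjusted p = 3.41e-06). MGDC, a galactolipid synthase, was at 134, 131, 124 and 142 CPM in Mock and at 2.72, 1.65 and 1.61 CPM in Columbia (log2 fold change 6.05 ± 0.25, edgeR adjusted p = 1.87e-06). The replicates of these genes lay close together on both sides. SQD2, which makes sulfolipid, averaged 523 CPM in Mock and 55.1 CPM in Columbia. The phosphatases PS2 (a pyrophosphatase, AT1G73010) and PEPC1 averaged 256 and 106 CPM in Mock, against 6.67 and 2.22 CPM in Columbia. PAP14, an acid phosphatase gene outside the list, was at 29.7, 23.4, 11.4 and 28.3 CPM in Mock, against 0, 0.0718 and 0.172 CPM in Columbia; its fold change was 273, between 177 and 654 with one or another Columbia library left out.

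Several phosphate uptake and sensing genes were also higher in Mock, while SPX2, PHF1 and PHR1 of the same list made no large change, at log2 fold changes of 0.49, 1.17 and 0.16. PHT1;1, the main root phosphate importer, was at 41.2, 48.7, 48.9 and 50.3 CPM in Mock, against 0.393, 0.287 and 1.03 CPM in Columbia (80.8-fold, and 136-fold without Columbia replicate 3). PHT1;4, a second importer, averaged 161 CPM in Mock and 12.1 CPM in Columbia. PHT1;1 is on the root marker list too, and the PHT1 importers are mostly root genes. SPX1 and SPX3, which sense inositol pyrophosphates and hold PHR1 back, averaged 246 and 21.2 CPM in Mock, against 34.0 and 0.959 CPM in Columbia; SPX3 was 21.8-fold higher in Mock, and 42.3-fold higher without Columbia replicate 3. How far the higher root marker levels of Mock contribute to the phosphate values was not tested.

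**Figure D2:**
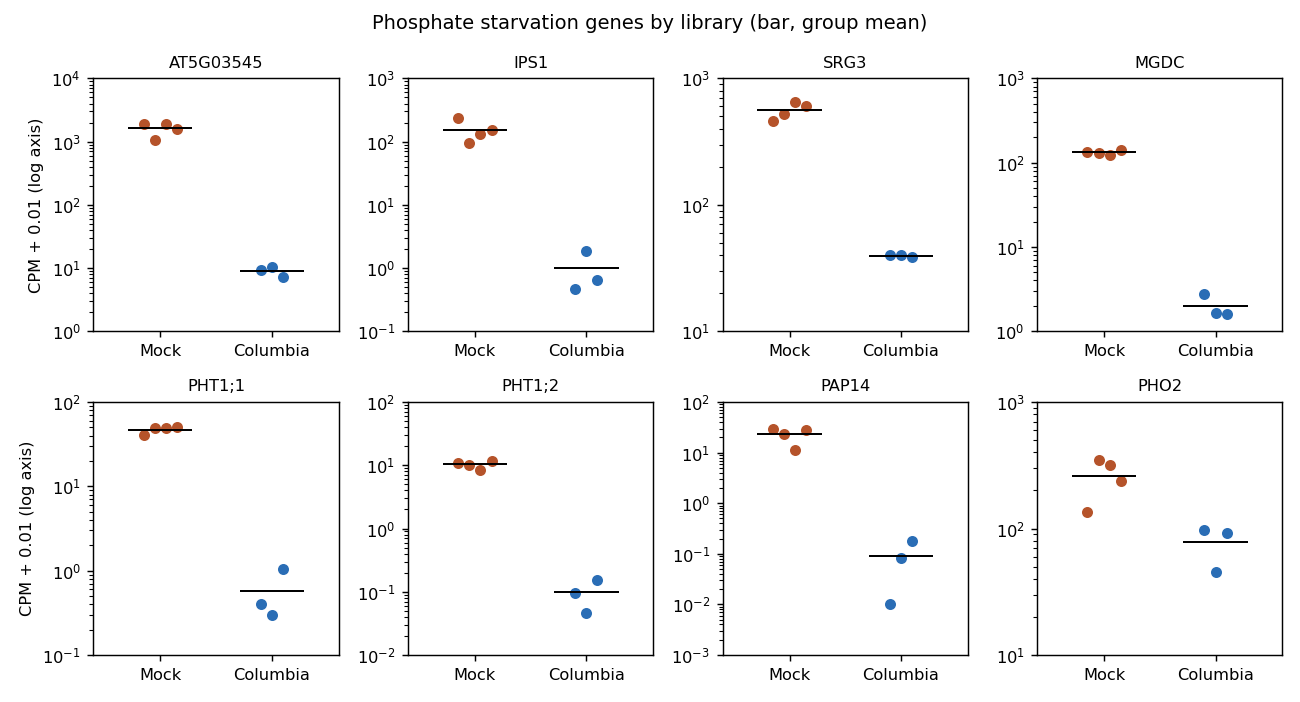
CPM + 0.01 on a log axis for 8 phosphate genes in each library, with Mock (4 libraries) on the left, Columbia (3 libraries) on the right and bars at group means. The Mock libraries lie above the Columbia libraries in all 8 panels, by the least for PHO2.

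PHR1 and its relatives bind the motif GNATATNC, which reads the same on both strands. It was found in the 300 bases before the annotated start of 9 of the 29 tested phosphate genes (31.0%), and in 6.59% of the 19494 protein-coding genes tested, 9.57% of the 1076 protein-coding genes with a large change higher in Mock and 5.29% of the 605 lower in Mock. These shares are descriptions, and the motif's absence from this window draws nothing about binding. The windows of SRG3, SPX3 and PS2 are shown, as members of the list with 1 or 2 copies (in capitals); they lie at chr3:350011-350310 (minus strand), chr2:18606110-18606409 (plus) and chr1:27466349-27466648 (minus) in RefSeq TAIR10.1.
SRG3: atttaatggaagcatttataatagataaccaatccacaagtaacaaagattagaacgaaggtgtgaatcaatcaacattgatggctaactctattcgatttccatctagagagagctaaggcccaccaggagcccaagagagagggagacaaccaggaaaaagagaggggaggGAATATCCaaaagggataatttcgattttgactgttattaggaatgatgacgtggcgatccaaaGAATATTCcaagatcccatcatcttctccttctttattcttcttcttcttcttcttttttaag
SPX3: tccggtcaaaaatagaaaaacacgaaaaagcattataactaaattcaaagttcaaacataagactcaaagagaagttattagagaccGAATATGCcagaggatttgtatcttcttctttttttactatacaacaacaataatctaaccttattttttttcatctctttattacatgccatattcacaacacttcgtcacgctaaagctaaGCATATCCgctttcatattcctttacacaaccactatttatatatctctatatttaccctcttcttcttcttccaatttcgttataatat
PS2: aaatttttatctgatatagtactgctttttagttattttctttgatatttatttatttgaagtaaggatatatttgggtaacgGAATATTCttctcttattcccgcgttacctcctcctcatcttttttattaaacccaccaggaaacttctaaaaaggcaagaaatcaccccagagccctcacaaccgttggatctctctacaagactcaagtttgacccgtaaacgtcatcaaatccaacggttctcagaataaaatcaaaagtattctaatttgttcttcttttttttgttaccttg

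Copper and zinc genes changed in both directions. Of 27 such genes, 24 were tested, of which 4 were higher in Mock and 3 lower, at a median log2 fold change of 0.60. The 3 that fell were CSD1, CSD2 and CCS: the cytosolic and plastid copper/zinc superoxide dismutases and the chaperone that loads them with copper. CSD2 was at 39.0, 33.5, 42.4 and 51.0 CPM in Mock, against 1210, 1140 and 1290 CPM in Columbia (log2 fold change -4.87 ± 0.19, edgeR adjusted p = 1.87e-06). CSD1 was at 40.8, 29.0, 47.3 and 34.0 CPM in Mock, against 680, 714 and 1260 CPM in Columbia (log2 fold change -4.55 ± 0.28, edgeR adjusted p = 7.2e-06). CCS was at 12.3, 12.1, 11.6 and 10.7 CPM in Mock, against 189, 132 and 138 CPM in Columbia (log2 fold change -3.71 ± 0.17, edgeR adjusted p = 3.41e-06). The Mock values of all 3 lay in narrow ranges more than 10-fold under the lowest Columbia library. FSD1, the iron superoxide dismutase that takes over in low copper, was at 2090 to 2730 CPM in Mock and 612 to 818 CPM in Columbia, 3.42-fold higher and so below the limit. FSD2, another iron superoxide dismutase and outside this list, made a large change the other way. It was at 5.01 to 7.09 CPM in Mock and 37.6 to 41.8 CPM in Columbia, 6.56-fold lower in Mock (edgeR adjusted p = 6.51e-06).

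CSD1, CSD2 and CCS are known targets of miR398, which low copper induces together with miR408. Further genes were therefore looked up after the values of the list had been seen. AT3G15640, annotated as a rubredoxin-like protein, was at 33.5, 33.9, 38.3 and 45.7 CPM in Mock, against 147, 276 and 197 CPM in Columbia (log2 fold change -2.45 ± 0.22, edgeR adjusted p = 3.6e-05). ARPN, a plantacyanin and a miR408 target, was at 0.901, 0.863, 0.363 and 0.802 CPM in Mock, against 16.1, 13.2 and 20.7 CPM in Columbia (log2 fold change -4.50 ± 0.29, edgeR adjusted p = 9.07e-06). Both were lower in every Mock library. The laccases with miR408 sites did not move together: LAC3 was 4.31-fold higher in Mock, LAC13 had a log2 fold change of -0.73 and LAC12 (AT5G05390) was too low to test. Plastocyanin, the copper protein of photosynthesis, had log2 fold changes of -1.27 for DRT112 and -0.94 for PETE1, below the limit. The stretches that pair best with each microRNA without gaps are shown, to put the transcript bases beside the microRNA (capitals: the seed of the microRNA, and the paired bases of the transcript).
miR398b-3p: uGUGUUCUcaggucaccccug
CSD1: aAGGGGUuuCCUGAGAuCACA
CSD2: ugcGGGUGACCUGgGAAacau
CCS: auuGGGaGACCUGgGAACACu
AT3G15640: aAGGuGUGACCUGAGAAucac
miR408-3p: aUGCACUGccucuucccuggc
ARPN: cCaAGGGAAGAGGCAGUGCAU
LAC3: aCCAGuGAAGAGGCuGUGCAg
Paired bases numbered 17 of 21 in CSD1, 13 in CSD2, 15 in CCS and 15 in AT3G15640 for miR398b-3p (chr5:4691107-4691127, plus strand), and 19 in ARPN and 17 in LAC3 for miR408-3p (chr2:19319933-19319953, plus strand). The stretches of CSD1 and AT3G15640 are in the 5' UTR (that of CSD1 is joined across an intron, chr1:2827177-2827685, and that of AT3G15640 is at chr3:5299204-5299224, both on the plus strand). Those of CSD2 (chr2:12015572-12015592, plus), CCS (chr1:4267521-4267541, minus), ARPN (chr2:827696-827716, minus) and LAC3 (chr2:12889603-12889623, minus) are in coding sequence. The microRNAs themselves were not analysed here, and whether they differ between the groups was not tested.

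**Figure D3:**
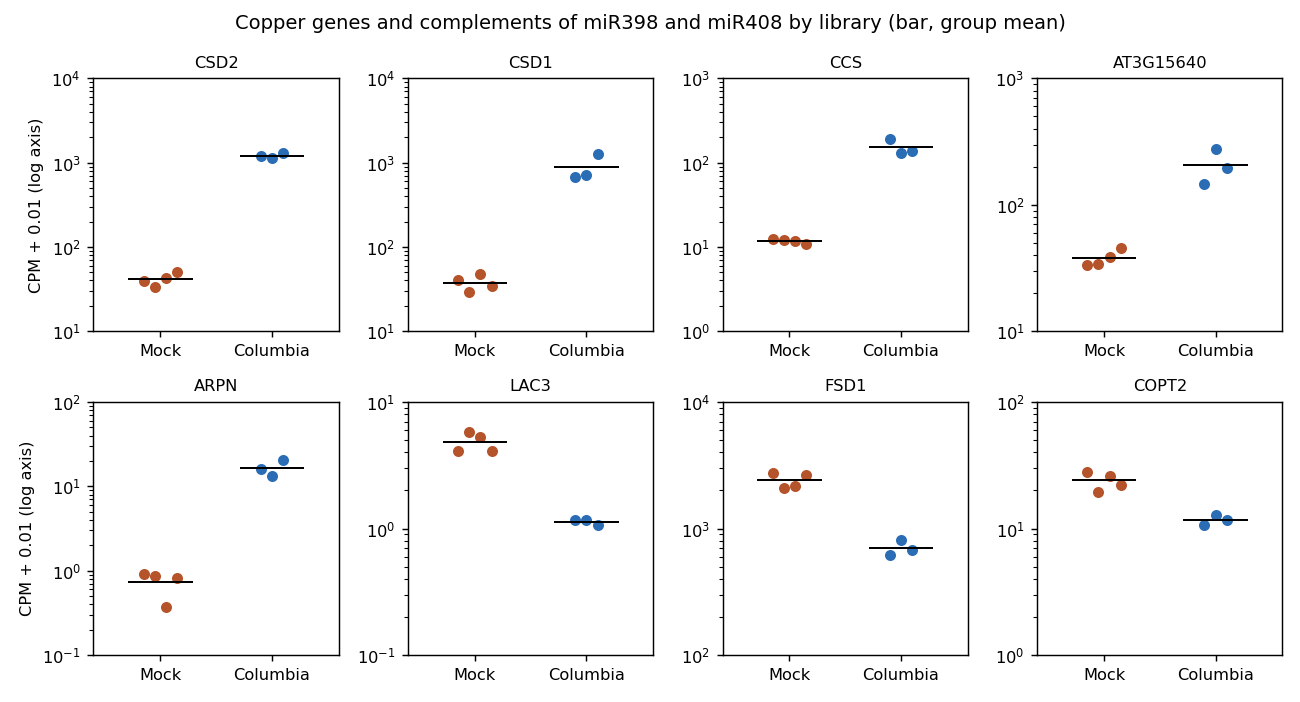
CPM + 0.01 on a log axis by library for copper genes and transcripts with a miR398 or miR408 stretch, Mock on the left and Columbia on the right, with bars at group means. CSD2, CSD1, CCS, AT3G15640 and ARPN are lower in every Mock library; LAC3, FSD1 and COPT2 (a copper importer, 2.06-fold) are higher.

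The higher copper and zinc genes were metal transporters and reductases. ZIP2, a zinc transporter of roots, was at 12.3, 9.88, 8.16 and 15.6 CPM in Mock, against 0.197, 0.144 and 0.344 CPM in Columbia, 48.7-fold higher. YSL2, which moves metals bound to nicotianamine, was at 137, 210, 228 and 152 CPM in Mock, against 13.5, 11.2 and 20.1 CPM in Columbia. FRO4 and FRO5, copper-reducing enzymes of the root surface, were the other two, with FRO5 at 2.00 CPM in Mock and without a count in Columbia. Iron genes gave a split picture: 19 of 26 were tested, with 3 higher and 1 lower, at a median of -0.16. Over all genes tested the shares were 5.63% higher and 3.23% lower. The higher genes were ABCG37 (10.4-fold), HA7 (4.54-fold) and IRT2 (38.3-fold, from 75 counts over the Mock libraries and 1 over the Columbia libraries). The one that fell was BHLH100, a regulator of iron uptake, with 3 counts over the Mock libraries and 462 over the Columbia libraries (CPM ratio 0.00449, 95% counting interval 0.000922 to 0.0132). Its Columbia libraries were at 3.14, 0.359 and 9.75 CPM, and the fitted 180-fold difference was 72.2-fold without Columbia replicate 3 and 344-fold without Mock replicate 1.

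Sulfur deficiency genes were higher in Mock in 8 of the 19 tested, and lower in 0, at a median of 1.83. ATSDI1, which restrains glucosinolate synthesis in sulfur shortage, was at 48.5, 82.9, 173 and 95.4 CPM in Mock and at 6.65, 6.71 and 5.13 CPM in Columbia (log2 fold change 4.02 ± 0.42, edgeR adjusted p = 6.57e-05). BGLU28, a myrosinase-like glucosidase that releases sulfur from glucosinolates, was at 7.87, 45.1, 57.8 and 12.2 CPM in Mock and at 0.197, 0.180 and 0.115 CPM in Columbia. The Mock libraries thus differed among themselves, but all lay above Columbia. LSU2 and LSU4 of the same response had log2 fold changes of -0.42 and -0.25, against 2.51 and 2.85 for LSU1 and LSU3. With Mock replicate 5 added, the count of sulfur genes was 5, and ATSDI1 was at 0.556 CPM in that library.

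Some genes that sugar represses were higher in the sucrose-grown seedlings. Of 24 genes on that list, 23 were tested, and 9 were higher and 0 lower in Mock, with a median log2 fold change of 1.62. ASN1, the dark-inducible asparagine synthetase, was at 90.7, 66.5, 95.8 and 97.4 CPM in Mock, against 1.21, 0.718 and 9.01 CPM in Columbia (23.8-fold, and 89.3-fold without Columbia replicate 3). SEN1 was at 111, 27.5, 44.9 and 64.7 CPM in Mock, against 1.26, 0.180 and 1.49 CPM in Columbia (log2 fold change 5.94 ± 0.68, edgeR adjusted p = 0.000109). TPS8, TPS9, TPS10 and TPS11, trehalose phosphate synthase-like genes, were 2.31 to 2.98 higher on the log2 scale. DIN11, named in the same series as DIN10 of the list but outside the list, went the other way. It was at 0.503 to 1.71 CPM in Mock and 4.21 to 70.8 CPM in Columbia (26.5-fold lower in Mock, and 5.98-fold without Columbia replicate 3). Of the 14 genes of starch and sugar induction, 1 was higher and 0 lower, at a median of 0.17. It was GPT2, a sugar phosphate importer of plastids that sugar induces, at 34.7, 73.2, 72.7 and 49.7 CPM in Mock, against 8.37, 3.41 and 7.92 CPM in Columbia.

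Cytokinin response genes were lower in Mock. Of 26 members, 21 were tested, and 0 were higher and 9 lower in Mock, at a median log2 fold change of -1.66. ARR15, a type-A response regulator that cytokinin induces, was at 0.465, 0.195, 0.196 and 0.277 CPM in Mock, against 19.9, 28.3 and 16.8 CPM in Columbia (log2 fold change -6.25 ± 0.31, edgeR adjusted p = 3.41e-06). RR16, another, was at 2, 1.25, 1.15 and 1.6 CPM in Mock, against 25.6, 30.2 and 22 CPM in Columbia (log2 fold change -4.11 ± 0.22, edgeR adjusted p = 4.52e-06). ARR7 averaged 4.16 CPM in Mock and 30.8 CPM in Columbia. No Mock library reached a Columbia library for these regulators. IPT3, the nitrate-induced enzyme of cytokinin synthesis, was at 5.08, 4.51, 9.44 and 4.95 CPM in Mock, against 25.3, 53.4 and 28.1 CPM in Columbia. CKX4, which degrades cytokinin and is itself induced by it, averaged 0.598 CPM in Mock and 4.45 CPM in Columbia. ARR3 had a log2 fold change of 3.01 without making a large change.

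Nitrate genes as a list stood at the overall median of 0.03, with 2 of 26 tested higher and 0 lower. The 2 were HRS1 and NRT2.5, both at low levels. HRS1 averaged 2.09 CPM in Mock and 0.122 CPM in Columbia (16.6-fold higher, and 31.0-fold without Columbia replicate 3). NRT2.5 averaged 1.12 CPM in Mock and 0.126 CPM in Columbia (8.84-fold higher, and 4.65-fold without Mock replicate 3). NIR1, nitrite reductase, was at 158, 130, 103 and 116 CPM in Mock, against 499, 521 and 455 CPM in Columbia, 3.88-fold lower and just short of the limit (4.03-fold without Columbia replicate 3, and 4.21-fold without Mock replicate 1). A run of 5 neighbouring genes on chromosome 4, AT4G15660 to AT4G15700, annotated as thioredoxin superfamily proteins, fell with the cytokinin genes and was looked up after the values were seen. AT4G15680 was at 1.13, 0.167, 0.196 and 0.194 CPM in Mock, against 24.9, 35.5 and 29.9 CPM in Columbia, and 71.4-fold lower in Mock (159-fold without Mock replicate 1). The other members were 32-fold to 106-fold lower, and leaving out Mock replicate 1 gave 159-fold for AT4G15660, 137-fold for AT4G15670 and 77.9-fold for AT4G15690. These genes are close copies, and how reads were shared among them is not stated.

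**Figure D4:**
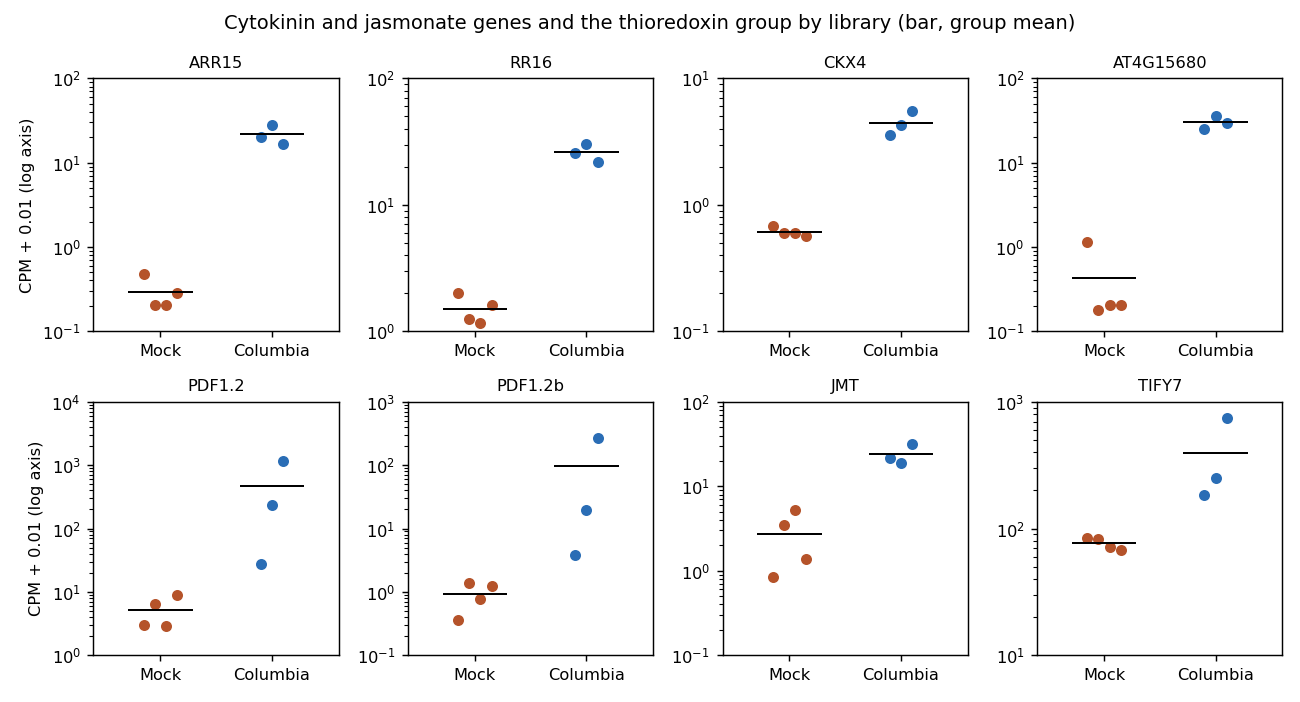
CPM + 0.01 on a log axis by library for cytokinin genes (ARR15, RR16, CKX4), one gene of the thioredoxin run (AT4G15680) and jasmonate genes (PDF1.2, PDF1.2b, JMT, TIFY7), Mock on the left and Columbia on the right, bars at group means. The Columbia points are spread most widely for PDF1.2 and PDF1.2b among the genes shown, and replicate 3 is the highest Columbia library for the 4 jasmonate genes.

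Jasmonate genes were lower in Mock in 9 of the 28 tested and higher in 1, at a median of -1.41, but the size rested on one library. The plant defensin PDF1.2 was at 2.99, 6.32, 2.82 and 8.71 CPM in Mock, against 27.2, 233 and 1170 CPM in Columbia 1 to 3. It was 91.6-fold lower in Mock, and 24.9-fold lower without Columbia replicate 3; PDF1.2b moved to 12.5-fold against 107-fold, PDF1.2c to 26.5-fold against 164-fold and PDF1.3 to 11.4-fold against 34.6-fold (63.0-fold without Mock replicate 4). Without that library 7 jasmonate genes in all made a large change, against 10 with it. TIFY7, a JAZ repressor, was 5.17-fold lower and 2.87-fold lower without that library, and AOC2, a jasmonate synthesis enzyme, was 10.4-fold and 3.1-fold lower, so that both lost the call. JMT, which methylates jasmonate, was at 0.842, 3.48, 5.28 and 1.35 CPM in Mock, against 21.5, 18.7 and 32.1 CPM in Columbia, and did not rest on a single library. The gene that rose, CYP94B1, which inactivates jasmonate, was 9.89-fold higher in Mock, and 39.9-fold higher without Columbia replicate 3. With Mock replicate 5 added to its group, the count of jasmonate genes was 6. The PDF1.2 genes are near-identical copies and their counts may be shared.

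Growth and light genes that PIF factors control, or that encode them, were higher in Mock in 8 of 27 tested and lower in 0, at a median of 0.68. HFR1, which restrains PIF factors, was at 37.6, 23.6, 23.7 and 24.3 CPM in Mock, against 0.702, 0.682 and 0.574 CPM in Columbia (log2 fold change 5.38 ± 0.26, edgeR adjusted p = 3.41e-06). PIF3 was at 32.3, 47.1, 30.1 and 30.9 CPM in Mock, against 5.56, 4.31 and 5.51 CPM in Columbia. YUC8, an auxin synthesis gene, averaged 4.49 CPM in Mock and 0.350 CPM in Columbia (12.6-fold, and 19.6-fold without Columbia replicate 1). PIL1, a common shade marker, had a log2 fold change of 0.28 and made no large change. Clock genes can shift with the hour of harvest, which the labels do not give. Of 28 clock genes tested, 2 were higher (PRR7 and EPR1, 4.72-fold and 5.11-fold) and 0 lower, at a median log2 fold change of 0.97. At an edgeR adjusted p under 0.05 alone, 19 were higher and 2 lower, against 29.8% and 28.2% of all genes tested. Log2 fold changes were 0.81 for CCA1, 0.25 for LHY, 0.52 for TOC1, 1.79 for GI and -1.86 for PCL1. PRR7 lost the call without Columbia replicate 2 and EPR1 without Mock replicate 1, at 3.89-fold and 3.99-fold.

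Few photosynthesis genes passed the limit. All 53 could be tested. By the large-change rule 0 were higher and 3 lower, at a median of -0.95. Without the 4-fold and overlap limits, at an edgeR adjusted p under 0.05 alone, 0 were higher and 42 lower, against 29.8% and 28.2% of all genes tested. Their summed level was 116000 to 148000 CPM in Mock and 223000 to 274000 CPM in Columbia. LHCB4.3, an antenna protein of photosystem II, was at 38.8, 42.1, 42.0 and 33.7 CPM in Mock, against 550, 504 and 391 CPM in Columbia (log2 fold change -3.62 ± 0.18, edgeR adjusted p = 3.41e-06). PSAK of photosystem I and PSBQA of photosystem II averaged 765 and 721 CPM in Mock, against 3490 and 3130 CPM in Columbia. The antenna genes LHCB2.1 and LHCB2.2 had log2 fold changes of 0.42 and 0.35. Cell cycle genes had a median of -0.96, with CYCA3;1 the 1 large change among 33 tested, which it was not without Mock replicate 2 (3.94-fold lower, against 4.2-fold). Of these 33, 0 were higher and 25 lower at an edgeR adjusted p under 0.05 alone. Root markers were higher in the same Mock libraries, at a summed 1870 to 2950 CPM against 849 to 953 CPM in Columbia, and their part in these values was not tested.

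Among all genes, the largest rises with a symbol included several root genes. BGLU21, a beta-glucosidase of roots with a close copy, was at 17.4, 24.8, 21.4 and 23.3 CPM in Mock and had no count in Columbia, at least 714-fold higher. MLP34, a major latex protein-like gene, was at 253, 124, 101 and 260 CPM in Mock, against 0.168, 0.0359 and 0.0287 CPM in Columbia. The TPS-CIN pair AT3G25820 and AT3G25830, cineole synthases of roots that are near-identical in sequence, had 1951 and 1765 counts over the Mock libraries, against 2 and 1 over the Columbia libraries. AT3G14395 and AT1G13609, to which the annotation gives no symbol, had the largest falls of any gene type: AT3G14395 was at 0.083 to 0.139 CPM in Mock and 22.9 to 51.6 CPM in Columbia, and AT1G13609 at 0.0838 to 0.194 CPM in Mock and 17.4 to 53.5 CPM in Columbia. CSLA01, a mannan synthase, and DIN11 fell 105-fold and 26.5-fold, but 24.9-fold and 5.98-fold without Columbia replicate 3; MYB113, an anthocyanin regulator, fell 69.6-fold and 5.38-fold without it. Leaving out Mock replicate 2 gave 260-fold for CSLA01, and leaving out Mock replicate 3 gave 123-fold for MYB113.

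The other 21 libraries of the series, outside the fit, were placed beside these values, in CPM scaled over all 28 libraries. The large-change genes were chosen because the Mock and Columbia libraries did not overlap, and the same libraries set the limits used here. The same shares over all genes tested were not computed, so the counts below are descriptions without a baseline. Mock replicate 5 lay beyond all Columbia libraries, on the side of Mock, for 1052 of the 1132 higher genes (92.9%) and 581 of the 649 lower genes (89.5%). Each of the 5 TSA libraries, from the same medium, did so for 951 to 1052 of the higher and 565 to 592 of the lower genes. Each of the 15 soil-grown mutant libraries lay beyond all 4 Mock libraries, on the side of Columbia, for 1052 to 1111 of the higher and 606 to 648 of the lower genes. The mutants were the deacetylase mutants hda9-1 and hda6-1, the histone variant line h2a.z-5, and each deacetylase mutant combined with that line. Each of these genotypes had 3 libraries, and they are pooled here. All 10 medium libraries were apart from all 18 soil libraries for 528 of the higher and 371 of the lower genes, 50.5% of all. CSD2 was at 6.40 CPM in Mock replicate 5, 21.5 to 63.0 CPM in TSA and 631 to 1660 CPM in the soil-grown mutants; ARR15 was at 0.0766 CPM in Mock replicate 5, 0.0641 to 0.0940 CPM in TSA and 9.26 to 28.4 CPM in those mutants. Other genes overlapped. CKX4 was at 4.56 CPM in Mock replicate 5, among the Columbia libraries at 3.32 to 5.09 CPM on the same scale. AT1G13609 was at 0 CPM in Mock replicate 5 but 4.7 to 46.5 CPM in TSA, against 16.3 to 49.4 CPM in Columbia. BHLH100 was at 0.0383 CPM in Mock replicate 5 but 0.727 to 8.61 CPM in TSA, against 0.336 to 9.01 CPM in Columbia. DIN11 was at 8.1 CPM in Mock replicate 5 and 4.1 to 26.6 CPM in TSA, against 3.89 to 65.4 CPM in Columbia. Of the phosphate genes, MGDC was at 23.0 CPM in Mock replicate 5, 3.89 to 9.87 CPM in TSA and 0.518 to 4.87 CPM in the mutants. SQD2 was at 44.8 CPM in Mock replicate 5 and 41.5 to 224 CPM in TSA, against 44.1 to 63.2 CPM in Columbia. IPS1 was at 61.2 CPM in Mock replicate 5 and 0.515 to 3.07 CPM in TSA, against 0.415 to 1.75 CPM in Columbia. SPX1 was at 142 CPM in Mock replicate 5 and 33.7 to 90.7 CPM in TSA, against 25.5 to 43.1 CPM in Columbia. These libraries share medium, experiment and table with their own group, so that they do not separate these.

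**Figure D5:**
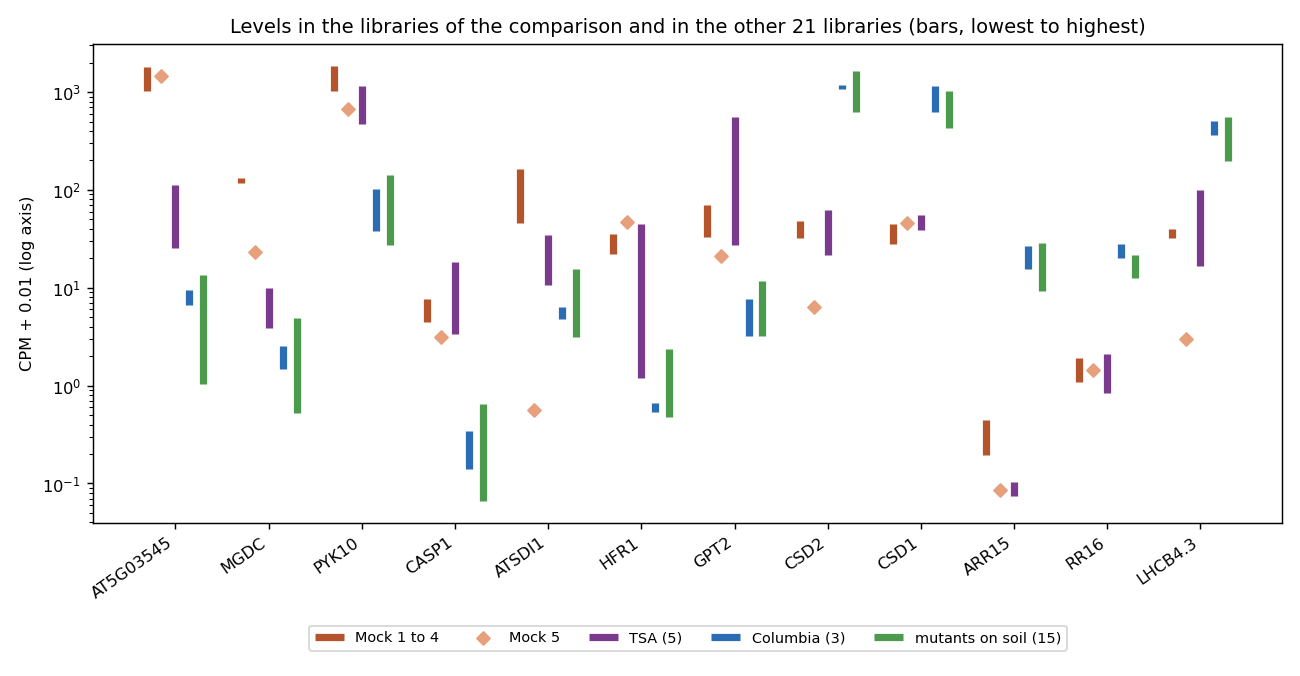
Range of CPM + 0.01 (log axis) of named genes in Mock 1 to 4, Mock 5, the 5 TSA libraries, the 3 Columbia libraries and the 15 soil-grown mutant libraries, scaled over all 28 libraries. CSD2, CSD1, ARR15 and RR16 show no overlap between the medium libraries and the soil libraries, while MGDC, ATSDI1 and HFR1 do.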

How the data were processed

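A pair of deposited gene tables of raw read counts was joined on 36632 gene identifiers; per the file headers, one holds the Columbia and mutant libraries and the other the Mock and TSA libraries. The aligner and counter that the authors used for these counts, and the strand, are not named in the sources at hand: the labels' protocols describe ChIP sequencing. Overlapping and antisense genes, and near-identical copies, may therefore share reads. All identifiers were found in the RefSeq TAIR10.1 annotation, which gave names, gene types and sequences.

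Counts of the 7 libraries were scaled by TMM and tested in edgeR 4.0.16 (R 4.3.3) with glmQLFit and glmQLFTest, two-sided, with 5 residual degrees of freedom, after filterByExpr (minimum count 10, minimum total 15). Group was the only term. A large change needed a Benjamini-Hochberg adjusted p under 0.05, a 4-fold change and no overlap in CPM. Folds against a group without counts use a floor of 3 counts over the group. Intervals and floors rest on counts summed over the libraries of each group, so they cover counting error only and leave out the spread between replicates. Whether the reads carried molecular identifiers is not stated in the sources at hand. The fit was tested on simulated data. DESeq2 1.42.0 and other settings were tried as alternatives.

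The 41 gene lists, with 998 genes, and the libraries were chosen with earlier results of these data known; 56 list symbols were not matched. Genes were named by rule: the 10 largest changes each way with a symbol and at least 5 CPM in the higher group, the 3 largest of any gene type, and up to 4 large changes with the smallest p of each list. Genes described as looked up later, and PYK10, RHS19, YSL2, ASN1, AOC2, ARR7, IPT3, NIR1, CYP94B1, SULTR1;1, PIF4, SPX1, SPX3, SQD2, PHT1;4, PS2 and PEPC1, as well as list members given with a mean or log2 fold change alone, were added after their values were seen.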

Additional observations from a re-analysis of the deposited data

Results flagged for a closer look

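In 18 of 157 named genes, 1 of the 4 Mock libraries lay far from the other 3 by Dixon's criterion, which chance alone meets in about 1 in 20 groups. Mock replicate 1 stood apart for 8 genes. HFR1 was at 37.6 CPM there (23.6 to 24.3 CPM in the other Mock libraries), SPX3 at 31.1 CPM (17.2 to 18.3), HSFA7A at 17.2 CPM (5.62 to 7.24) and PETE1 at 123 CPM (157 to 163). Of the thioredoxin run on chromosome 4, AT4G15660 was at 0.378 CPM in that library (0.111 to 0.138 in the others), AT4G15670 at 0.639 CPM (0.111 to 0.168), AT4G15680 at 1.13 CPM (0.167 to 0.196) and AT4G15690 at 1.42 CPM (0.223 to 0.415). In Mock replicate 2, SQD2 was at 727 CPM (441 to 482), PIF3 at 47.1 CPM (30.1 to 32.3), HA7, a proton pump gene, at 2.81 CPM (1.45 to 1.62) and ACA2 (AT2G28210, an alpha carbonic anhydrase) at 0.724 CPM (0.0277 to 0.145). In Mock replicate 3, CRA1, a seed storage protein gene, was at 13.1 CPM (0.995 to 2.73), IPT3 at 9.44 CPM (4.51 to 5.08), WSD1, a wax ester synthase gene, at 5.89 CPM (0.885 to 1.68), NRT2.5, a nitrate transporter gene, at 2.71 CPM (0.387 to 0.697) and MYB113 at 0.279 CPM (0.0557 to 0.0830). KT1, a potassium channel gene, was at 16.1 CPM in Mock replicate 4 (14.7 to 14.9). All 18 but PETE1 made a large change with the 4 libraries; without the library that stood apart, the difference was 3.34-fold for HSFA7A and 3.79-fold for HA7, under the limit, 9.43-fold against 23.6-fold for CRA1, 4.65-fold against 8.84-fold for NRT2.5, 20.4-fold against 10.2-fold for WSD1 and 62.3-fold against 25.5-fold for ACA2. What sets these libraries apart was not tested.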

How the results depend on the processing

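Large changes numbered 1781 and stayed between 1638 and 2042 as each library was left out; 1265 of them were kept whichever was left out. The count was 1783 with DESeq2, 1788 with RLE factors, 1787 with upper-quartile factors, 1706 with a test against a 2-fold change, 1884 with Mock replicate 5 added and 2196 with all 28 libraries in the fit. Requiring 50 counts in 3 libraries left 1184 (703 higher, 481 lower), in a smaller set of genes. An 8-fold limit left 751 (603 higher, 148 lower; 99 list members against 184), so that rises made up 80.3% of them, against 63.6% at 4-fold. Same-numbered Mock and Columbia libraries correlated at -0.205, -0.182 and 0.0365 after removal of group means, so the numbers do not pair the samples; with a replicate block on replicates 1 to 3 the count was 1755 (1044 higher, 711 lower), and without the block on the same libraries, a setting added after seeing the data, 1748. Of 2925 recomputed values of named genes, 2794 kept direction and call, 124 lost the call, 3 gained it and 4 reversed. The 4 reversals came with Mock replicate 5 added: log2 fold changes of 1.87 for AOC3 AT3G25780, 1.27 for KIN2 AT5G15970, 0.16 for AOC2 AT3G25770 and 0.0707 for IAA5 AT1G15580. With that library the count of drought and abscisic acid genes was 3, against 8. Low counts limit root markers and other genes near 0 in Columbia, whose folds depend on few reads.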

Other observations

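Other lists with at least 4 large changes held small groups of genes. Of 24 seed maturation genes, 10 could be tested and 7 were higher in Mock, all at low levels: ICL, isocitrate lyase of the glyoxylate cycle, was at 3.25, 1.22, 6.09 and 2.6 CPM in Mock and had no count in Columbia (at least 108-fold higher), and 12 of the 24 had no count in any Columbia library. Members without a count in Columbia could be tested only through their Mock counts, so the share of 7 in 10 and the median of 3.87 are partly set by the filter. The summed level of the tested members overlapped, at 183 to 347 CPM in Mock and 185 to 258 CPM in Columbia. Of 14 heat shock genes tested, 4 were higher and 0 lower. HSP70 (AT3G12580), the heat-induced chaperone, was at 619, 446, 610 and 143 CPM in Mock, against 56.0, 5.17 and 21.4 CPM in Columbia (16.5-fold, and 33.9-fold without Columbia replicate 1). Of 35 drought and abscisic acid genes tested, 5 were higher and 3 lower: GolS2, which makes galactinol, was at 40.7, 47.5, 58.7 and 30.4 CPM in Mock, against 2.41, 0.754 and 1.32 CPM in Columbia, while COR15A, a cold-regulated protein gene, was at 0.639, 1.64, 1.17 and 0.498 CPM in Mock, against 17.3, 17.8 and 21.8 CPM in Columbia. In CPM scaled over all 28 libraries, COR15A was at 73.2 CPM in Mock replicate 5, outside the fit, and 2.21 to 55.1 CPM in TSA, against 16 to 20.1 CPM in Columbia, so that it was higher than Columbia in Mock replicate 5.

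Single genes of other lists also lay far apart. AZI1, a lipid transfer-like gene of systemic immunity, was at 490, 310, 186 and 551 CPM in Mock, against 2.84, 9.26 and 3.90 CPM in Columbia (72.5-fold, and 114-fold without Columbia replicate 2), in a list of salicylic acid defence genes with 2 of 30 tested higher and 0 lower. STOMAGEN, a peptide that promotes stomata, was at 6.31 to 15.3 CPM in Mock and 43.3 to 55.0 CPM in Columbia. MYB29, a regulator of aliphatic glucosinolates, was at 7.38, 3.12, 1.98 and 4.31 CPM in Mock, against 20.6, 21.4 and 23.3 CPM in Columbia, whereas CYP79F2 of the same pathway was 5.89-fold higher in Mock. By gene type, 0 of 77 small nucleolar RNA genes tested were higher and 12 lower, and 22 of 135 pseudogenes were higher and 2 lower. Over all genes tested the shares were 5.63% higher and 3.23% lower. How the RNA libraries of each experiment were prepared is not stated, and its part in these counts was not tested.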
